A study of Mus musculus with 4 samples.

Results

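Mt1 and Mt2 are the paired genes of the 2 widely expressed mouse metallothioneins, taken here by their rows among the 32285 genes of the count tables. They were chosen for their measured level, in CPM (UMIs of the gene per 1000000 UMIs, summed over barcodes) and in percent of positive barcodes, by library and by cell type, so those values are given as a description and carry no test. Each library held CD45+ leukocytes sorted from digested hindpaws of pooled male mice and was read with a droplet-based single-cell assay of the 3' ends of transcripts, where a barcode marks the cell and a unique molecular identifier (UMI) marks the captured molecule. The groups were 12-week-WT and 21-week-WT, the wild-type littermates, and 12-week-DB and 21-week-DB, homozygous Lepr db/db mice on the C57BLKS/J background (Dock7m +/+ Leprdb). The DB mice carry the db allele of the leptin receptor gene in all tissues and become obese and diabetic. Each group had 1 library, so a difference between groups had no replicate check and could not be told apart from a difference between libraries. Where 4 values stand in a row, they are those of WT and DB at 12 weeks and then those of WT and DB at 21 weeks. All intervals are exact 95% intervals, cover counting error only, and treat UMIs of 1 barcode as independent.

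Metallothioneins are small, cysteine-rich proteins that bind zinc and copper, buffer the pool of free metal and react with oxidants. The zinc-sensing transcription factor MTF1 drives their genes through metal response elements in the promoter, and glucocorticoids, oxidants and inflammatory cytokines are known inducers as well. In skin, keratinocytes and fibroblasts express them strongly, and macrophages use them when metals are withheld from or loaded onto microbes.

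Both genes lie on the plus strand of chromosome 8 (GRCm38, the mm10 build, GENCODE vM21). Mt2 (ENSMUSG00000031762) spans 94172664-94173568 and Mt1 (ENSMUSG00000031765) spans 94179082-94180327, with 5513 bases between the end of Mt2 and the start of Mt1. Each has 3 exons in its main transcript. The 549-base Mt1 and 511-base Mt2 transcripts shared no stretch of 30 bases, and the longest identical run was 20 bases over the whole transcripts and 12 bases in the last 200 bases, where a 3' library takes its reads, so a read of 30 bases or more does not match both. The 250 bases before each RefSeq start (GRCm38.p6) are printed because the MTF1 core is what a metal-driven gene would carry: the capitals mark matches to TGCACNC or TGCGCNC on either strand. The Mt1 window is chr8:94178839-94179088 and the Mt2 window is chr8:94172368-94172617, both on the plus strand.
Mt1: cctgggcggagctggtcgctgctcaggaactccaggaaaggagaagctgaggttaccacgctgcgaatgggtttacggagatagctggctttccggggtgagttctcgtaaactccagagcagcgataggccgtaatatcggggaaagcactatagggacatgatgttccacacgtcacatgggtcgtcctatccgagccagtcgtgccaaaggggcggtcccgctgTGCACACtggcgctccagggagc
Mt2: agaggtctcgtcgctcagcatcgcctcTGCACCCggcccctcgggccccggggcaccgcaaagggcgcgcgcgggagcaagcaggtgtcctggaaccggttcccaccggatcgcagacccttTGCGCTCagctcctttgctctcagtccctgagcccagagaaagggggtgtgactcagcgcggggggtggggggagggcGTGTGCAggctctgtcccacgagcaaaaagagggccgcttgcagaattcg
The Mt1 window held 1 match and the Mt2 window 3. Of 32851 promoters of the same length, 21.4% held 1 or more matches and 1.26% held 3 or more. With the 50 bases after the start included, Mt1 had 3 matches and Mt2 had 4, numbers reached or passed by 1.97% and 0.517% of promoters. The glucocorticoid receptor core AGAACA was not found in these windows, while 16.1% of promoters held it, and the antioxidant core TGACNNNGC was found once upstream of Mt2 and in 10.2% of promoters. The annotated starts lie from 7 bases before to 152 bases after the RefSeq start for Mt1 and from 46 to 242 bases after it for Mt2, so the windows do not cover every promoter in use. Bases farther upstream were not searched, so a motif that was not found here may lie outside the windows.

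Kept were the barcodes that had 200 or more genes and no more than 10% of their UMIs from mitochondrial genes, 5271, 6552, 7270 and 8707 of them, 27800 in all, with 46435961 to 67723605 UMIs per library. Cell classes were read from marker genes in each barcode, and 78.9% to 83.9% of the kept barcodes entered a class. The 21-week-DB library stood apart from the others, with a median depth of 5355 UMIs against 7193.5 to 8000.5, and with the leukocyte gene Ptprc detected in 79.6% of barcodes against 88.6% to 91.2%. A cluster led by the neuronal genes Sncg, Stmn2 and Uchl1 held 0, 0, 181 and 135 kept barcodes, at a median of 728 UMIs. It was found in the 21-week libraries only. The part of these differences in the Mt1 and Mt2 values over all barcodes was not tested. Lepr had 16 to 30 UMIs per library, and 3' counts do not separate its isoforms, so the genotype could not be checked. The 2 libraries of 12 weeks shared 41 barcode sequences and the 2 of 21 weeks shared 154. The deposited headers name Cell Ranger 5.0.0 for the 12-week libraries and 6.0.0 for the 21-week libraries, a difference that cannot be told apart from age.

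In macrophages, the class defined by C1q genes, Pf4, Apoe, Mrc1, Cd163, Folr2 and Adgre1, both genes stood far higher in 21-week-DB than in the other 3 libraries. The class held 1608, 1752, 1504 and 1437 barcodes. Csf1r, the macrophage growth factor receptor that was no part of the gate, was detected in 95.8% to 97.0% of them. Between 46 and 123 barcodes per library lay near the limit of the gate.

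Mt1 in macrophages at 12 weeks was at 359 CPM (interval 350 to 369) in WT and 375 (367 to 384) in DB, and at 21 weeks it was at 339 (331 to 348) in WT and 2085 (2061 to 2109) in DB, from 5624, 7154, 5808 and 29152 UMIs. Thus 3 libraries lay within a narrow band, in which the intervals of the 12-week libraries touched each other, and 21-week-DB lay 6.14-fold above 21-week-WT (log2 2.62, 2.58 to 2.66). At 12 weeks the log2 ratio of DB to WT was 0.063 (0.013 to 0.11), and it was -0.11 in the Lyve1- macrophages and -0.019 as a mean of values per barcode, so it had no stable sign. Within DB, 21 weeks stood 5.56-fold above 12 weeks (log2 2.47, 2.44 to 2.51), a ratio that shares the 21-week-DB library with the one at 21 weeks.

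Mt2 in macrophages at 12 weeks was at 45.3 CPM (42.1 to 48.8) in WT and 64.4 (60.8 to 68.1) in DB, and at 21 weeks it was at 58.1 (54.5 to 61.8) in WT and 471 (459 to 482) in DB. The lowest level was thus that of 12-week-WT, 21-week-WT and 12-week-DB had overlapping intervals, and 21-week-DB was apart from all of them. The ratio of 21-week-DB to 21-week-WT was 8.11-fold (log2 3.02, 2.92 to 3.12), and that of 21-week-DB to 12-week-DB was 7.31-fold (log2 2.87, 2.78 to 2.96). At 12 weeks Mt2 was 1.42-fold higher in DB than in WT (1.29 to 1.56).

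Among the 3339 genes with at least 50 CPM in macrophages of 1 or both of the 21-week libraries, Mt2 had the second highest ratio of DB to WT and Mt1 the third highest. At least 2-fold higher in DB were 61 of these genes (1.83%) and at least 2-fold lower were 73 (2.19%), and the median log2 ratio of all of them was 0.028. Since the contrast was used to choose Mt1 and Mt2, nothing is read from their place in it. At 12 weeks Mt2 was 95th and Mt1 1530th of 3496 genes, of which 0.343% were at least 2-fold higher and 1.32% at least 2-fold lower in DB. Neither gene differed by 2-fold between the WT libraries of 21 and 12 weeks, where 0.558% of 3405 genes were higher and 0.646% lower by that much, while both were past 2-fold between the DB libraries, where 2.51% of 3509 genes were higher and 2.19% lower.

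The higher level of 21-week-DB was spread over most macrophages and was highest in a minority of them. Mt1 was detected in 80.8%, 80.5%, 80.5% and 94.3% (93.0 to 95.4) of macrophages. Mt2 was detected in 20.1%, 26.0%, 22.8% and 55.6% (53.0 to 58.2) of them. Median depths of these barcodes ran from 8714 to 10419.5 UMIs, and 21-week-DB, at 8958, was not the deepest. Thinned to 2000 UMIs each, which left out 38 to 49 shallower barcodes per library, 46.1%, 43.0%, 40.1% and 77.4% of macrophages kept a UMI of Mt1, and 6.61%, 8.58%, 8.76% and 31.5% kept one of Mt2. Dermal γδ T cells, a lymphoid class with little of either gene, gave 2.61%, 6.28%, 4.30% and 14.5% for Mt1 and at most 2.53% for Mt2 at the same depth.

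Scaled to 10000 UMIs of the barcode, the median macrophage had 2.53, 2.36, 2.26 and 9.04 Mt1 UMIs. The 90th percentile was 8.16, 8.06, 8.08 and 50.8, and the 99th was 21.7, 21.2, 21.8 and 156. The libraries were therefore farther apart at the upper end than in the middle, and in 21-week-DB 85.8% of macrophages were above the 21-week-WT median and 53.4% above its 90th percentile. The 10% of 21-week-DB macrophages with most Mt1 held 47.1% of the Mt1 signal, against 36.0% to 39.3% in the other libraries. With those 10% left out of every library, the mean was still 12.2 Mt1 UMIs per 10000 in 21-week-DB against 2.36 in 21-week-WT. For Mt2, the 90th percentile was 1.46, 1.75, 1.59 and 11.6, and 40.6% of 21-week-DB macrophages were above that of 21-week-WT.

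**Figure D1:**
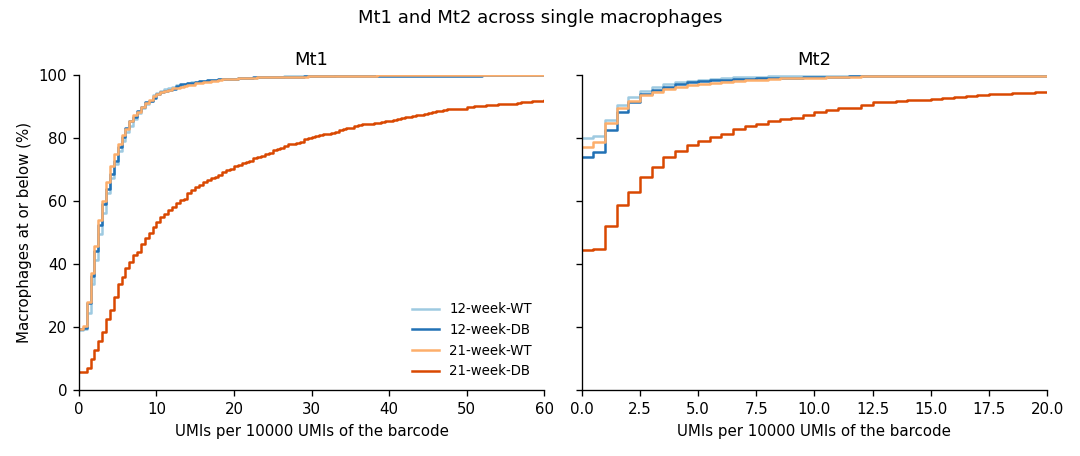
Cumulative share of macrophages (vertical axis, percent) at or below a given number of Mt1 (left) or Mt2 (right) UMIs per 10000 UMIs of the barcode (horizontal axis), with 1 line per library. For Mt1, the lines of 3 libraries lie close together, and that of 21-week-DB runs to their right, with a median of 9.04.

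The balance of the 2 transcripts differed too. Macrophages at 12 weeks held 7.92 Mt1 UMIs per Mt2 UMI (7.32 to 8.58) in WT and 5.83 in DB, and at 21 weeks 5.84 in WT and 4.43 (4.31 to 4.55) in DB. The share of Mt2 was thus largest in 21-week-DB, and the intervals of 12-week-DB and 21-week-WT overlapped. Other classes had balances of their own, with 1.09 to 2.30 in keratinocytes and 9.0 to 15.2 in monocyte-derived cells. In thinned macrophages, Mt2 was detected in 9.33%, 13.4%, 15.7% and 38.0% of the barcodes with a UMI of Mt1 and in 4.28%, 4.91%, 4.11% and 9.18% of those without one. Mt2 was therefore found more often where Mt1 was found, in each library, with a Pearson correlation across barcodes of 0.117, 0.237, 0.262 and 0.544, given as a description at 1 depth.

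Gene levels of other cell types inside the macrophage gate were read beside these values. The 6 stromal markers, of which 4 were detected in 21-week-DB and all in the other libraries, summed to 48.0, 9.97, 13.4 and 4.86 CPM. The 6 keratinocyte markers, all detected, summed to 17.8, 12.9, 8.70 and 11.4 CPM. The part of either list in the Mt1 and Mt2 values was not tested beyond leaving out the macrophages with a UMI of such a marker, after which the log2 ratio at 21 weeks was 2.58 for Mt1 and 3.15 for Mt2. The 6 neutrophil markers, all detected, were highest there, at 173 CPM against 79.0 to 86.7, and their part in the Mt1 and Mt2 values was not tested. The 7 mast cell markers summed to 127, 36.0, 31.3 and 75.7 CPM. The median share of mitochondrial UMIs in macrophages was lowest in 21-week-DB, at 2.29% against 2.75% to 4.07%, and was not tested for its part either.

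The 15 cell classes differed widely in Mt1, and their order was not the same in every library. Keratinocytes, the few non-immune cells of the epidermis that passed the CD45 sort, had Mt1 at 2262, 1856, 2780 and 7628 CPM, from 30, 31, 15 and 24 barcodes. Stromal cells had 2130, 1393, 2019 and 4686. Mast cells, the granule-bearing sentinels of connective tissue, had 703, 807, 568 and 1670, from barcodes that were shallow (median depths of 1434.5 to 2071 UMIs). Type 2 conventional dendritic cells (cDC2) had 279, 188, 249 and 1271, and monocyte-derived cells had 157, 118, 195 and 1039. In each of these classes 21-week-DB was the highest library.

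**Figure D2:**
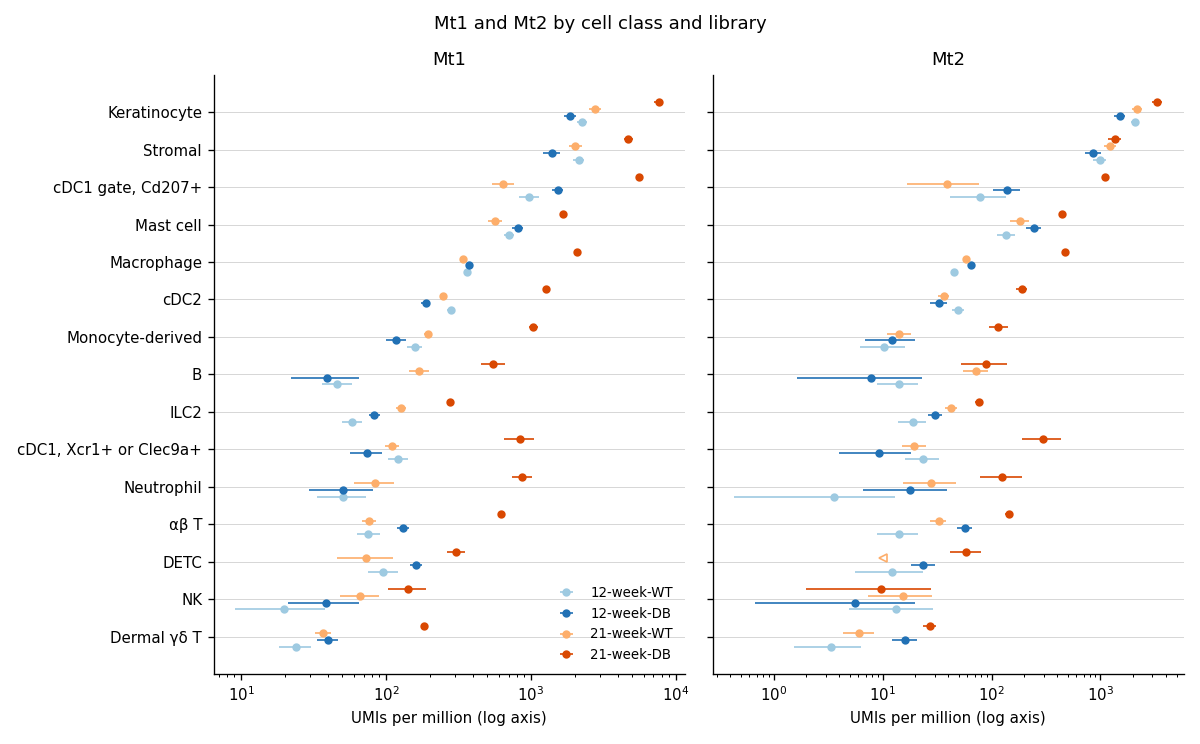
Level of Mt1 (left) and Mt2 (right) in each cell class, in CPM on a log axis, with 1 point per library and exact 95% Poisson intervals; the open triangle marks a class with no UMI, at the level that 3 counts would give (9.98). For Mt1, 21-week-DB is the rightmost point in all 15 classes.

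Over all classes Mt1 at 21 weeks was higher in DB than in WT in 15 of 15 classes, with log2 ratios from 1.09 (0.45 to 1.74) in natural killer cells to 3.38 (2.88 to 3.91) in neutrophils and a median of 2.31. All 15 intervals were above 0. Mt2 gave a ratio in 13 classes, those with more than 3 UMIs in both libraries. It was higher in DB in 13 of them, with 11 intervals above 0 and a median log2 ratio of 2.16. Natural killer cells and dendritic epidermal T cells missed that limit and went opposite ways. Mt2 in natural killer cells was lower for DB, with 3 UMIs (9.61 CPM, 1.98 to 28.1) against 10 for WT (15.3 CPM, 7.36 to 28.2), so these intervals overlapped. Dendritic epidermal T cells held 39 Mt2 UMIs for DB and 0 for WT. The classes come from the same pair of libraries and are not replicates of the genotype. At 12 weeks the classes were divided. Mt1 was higher in DB in 9 and lower in 6 classes, with 7 intervals above and 5 below 0 and a median log2 ratio of 0.063. Mt2 was higher in 8 and lower in 4 of 12 classes. Between the DB libraries, which share 21-week-DB with the comparison above, Mt1 was higher at 21 weeks in 15 of 15 and Mt2 in 13 of 13 classes, whereas between the WT libraries Mt1 was higher in 8 and lower in 7.

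Some classes were small, and in them 1 barcode could hold much of the signal. The barcode holding most UMIs was therefore left out of each class and library. Mt1 at 21 weeks was then still higher in DB in 15 of 15 classes, with 15 intervals above 0 and a median log2 ratio of 2.33. Mt2 was higher in 11 of the 11 classes that still gave a ratio, with 10 intervals above 0. In dendritic epidermal T cells (DETC), 1 of 132 barcodes of 21-week-DB held 54.0% of the Mt1 UMIs, and the ratio was 2.05 with it and 2.42 without the top barcode of either library. In Xcr1+ or Clec9a+ type 1 dendritic cells, which numbered 7 in 21-week-DB, all 25 Mt2 UMIs came from 1 barcode. In B cells of 21-week-WT, 1 barcode held 87.2% of the 149 Mt1 UMIs and 96.8% of the 63 Mt2 UMIs, and in neutrophils of 21-week-DB, 1 barcode held 53.6% of the 153 Mt1 UMIs.

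Of the immune classes, the one with the highest Mt1 level in 21-week-DB was the Cd207+ Xcr1- Clec9a- part of the cDC1 gate, defined after its members were viewed by Cd207, the C-type lectin of Langerhans cells and some dermal dendritic cells. It had Mt1 at 976, 1534, 642 and 5600 (5417 to 5788) CPM, from 12, 33, 11 and 49 barcodes. Mt2 was at 78.8, 139, 39.2 and 1105, which is the largest log2 ratio of Mt2 at 21 weeks among the classes (4.82, 3.83 to 6.04), resting on 8 UMIs in 21-week-WT. The Xcr1+ or Clec9a+ part of the same gate was far lower, at 122, 73.4, 110 and 835 for Mt1.

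Lymphoid classes had less Mt1 than macrophages in every library, with 21-week-DB again the highest. Mt1 was at 75.7, 131, 76.4 and 619 CPM in αβ T cells, at 23.8, 39.6, 37.0 and 184 in dermal γδ T cells and at 58.5, 83.0, 127 and 277 in type 2 innate lymphoid cells (ILC2). Mt2 in αβ T cells was at 14.0, 56.6, 32.6 and 144. In DETC of 21-week-WT, no UMI of Mt2 was found among 44 barcodes, which allows up to 9.98 CPM (3 counts), and in 21-week-DB it was at 58.7, with 82.1% of its 39 UMIs in 1 barcode. Free RNA was estimated from Lyz2, a myeloid gene, in the 6 lymphoid classes, whose median share of ambient UMIs was 5.47%, 11.6%, 5.26% and 4.85%. On that estimate, ambient Mt1 in these classes would reach 60.3 and 33.6 CPM at most in WT and DB at 12 weeks and 20.1 CPM in WT at 21 weeks, and it would be between 21.8 and 91.7 CPM in 21-week-DB, the highest of the 4. In 21-week-DB the 6 classes had 141 to 619 CPM, which is 3.31 to 11.6 times the estimate for the same class. The 3.31 was that of DETC and the 11.6 that of B cells. In B cells 1 barcode held 72.3% of the 112 Mt1 UMIs, and in DETC 1 barcode held 54.0% of 202. In αβ T cells, at 11.5 times the estimate, 1 barcode held 11.7%. The lower bound of Mt1 was above the ambient level in 5, 4, 6 and 6 of 6 classes. The estimate took the sum of all kept barcodes as the ambient profile, used no empty droplets and carries no error of its own. Free RNA from cells with little Lyz2 would escape it, so the comparison cannot tell how much of the lymphoid Mt1 was ambient.

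Summed over all kept barcodes, Mt1 was at 270, 250, 221 and 1041 CPM and Mt2 at 54.9, 53.9, 45.9 and 235. The log2 ratio of DB to WT at 21 weeks was 2.24 for Mt1 and 2.36 for Mt2. With the classes of 21-week-DB weighted as in 21-week-WT, these were 2.36 and 2.40. The weighting covers the classes only and not the subgroups within a class. Macrophages held 25.3% of all UMIs and 38.8% of the Mt1 UMIs in 21-week-WT, and 25.7% and 51.4% in 21-week-DB. Mast cells went from 3.09% to 14.6% of barcodes but, being shallow, from 0.830% to 4.19% of UMIs, and held 6.72% of Mt1 UMIs in 21-week-DB.

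Within macrophages, the study's split by Lyve1, the hyaluronan receptor of perivascular resident macrophages, and by MHC class II was not used to choose Mt1 and Mt2, and the 4 libraries give a paired test of it. Lyve1+ macrophages (at least 1 UMI) made up 62.0% to 69.0% of the class. Their Mt1 level was 378, 421, 358 and 2155 CPM, and that of Lyve1- macrophages was 308, 286, 296 and 1881. Mt2 was at 52.8, 81.3, 65.8 and 497 in Lyve1+ and at 25.8, 31.7, 40.1 and 394 in Lyve1- macrophages. Both genes were thus higher in Lyve1+ macrophages in 4 of 4 libraries, with MHC class II not held fixed.

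The difference passed the test for Mt2 and missed it for Mt1. In edgeR's quasi-likelihood test on sums per library and subgroup, with the library as a block, the log2 fold change of Lyve1+ over Lyve1- was 0.73 ± 0.15 for Mt2, with a Benjamini-Hochberg adjusted p of 0.00703 over 12560 genes. Here and below, the ± value is an SE derived from the F value of that test, whose variance borrows from other genes. For Mt1 it was 0.24 ± 0.08, with an adjusted p of 0.0537 in the same edgeR test. Of all genes tested, 11.9% were called higher and 11.9% lower in Lyve1+ macrophages, so a call was common. Lyve1+ barcodes were deeper (medians of 9413 to 11304 UMIs against 7644 to 9029), and with barcodes thinned to 2000 UMIs the log2 fold change of Mt2 was 0.74 and that of Mt1 0.22. With macrophages taken from clusters instead of gates, Mt1 passed the edgeR test as well (log2 0.49, adjusted p 0.000958). The 4 libraries stand for 4 different conditions, so these p-values describe a difference shared by them, not replicates of 1 condition.

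MHCII-high macrophages, those with a log-normalized H2-Ab1 value of at least 2, had less Mt1 in every library and less Mt2 in most. Mt1 was at 324, 300, 288 and 1394 CPM in MHCII-high and at 375, 413, 385 and 2162 in MHCII-low macrophages, lower in 4 of 4 libraries. Mt2 was at 45.9, 40.5, 42.5 and 321 in MHCII-high and at 45.1, 76.4, 72.0 and 488 in MHCII-low macrophages, lower in 3 of 4, with the pair of 12-week-WT about level. In the edgeR test the log2 fold change of MHCII-high over MHCII-low was -0.34 ± 0.07 (SE) for Mt1, with an adjusted p of 0.00317, and -0.48 ± 0.11 for Mt2, with an adjusted p of 0.00910, over 12655 genes. Of those genes 13.8% were called higher and 13.6% lower. Without 12-week-DB the adjusted p of Mt2 was 0.0545 and without 21-week-WT it was 0.0565, with log2 fold changes of -0.38 and -0.42.

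**Figure D3:**
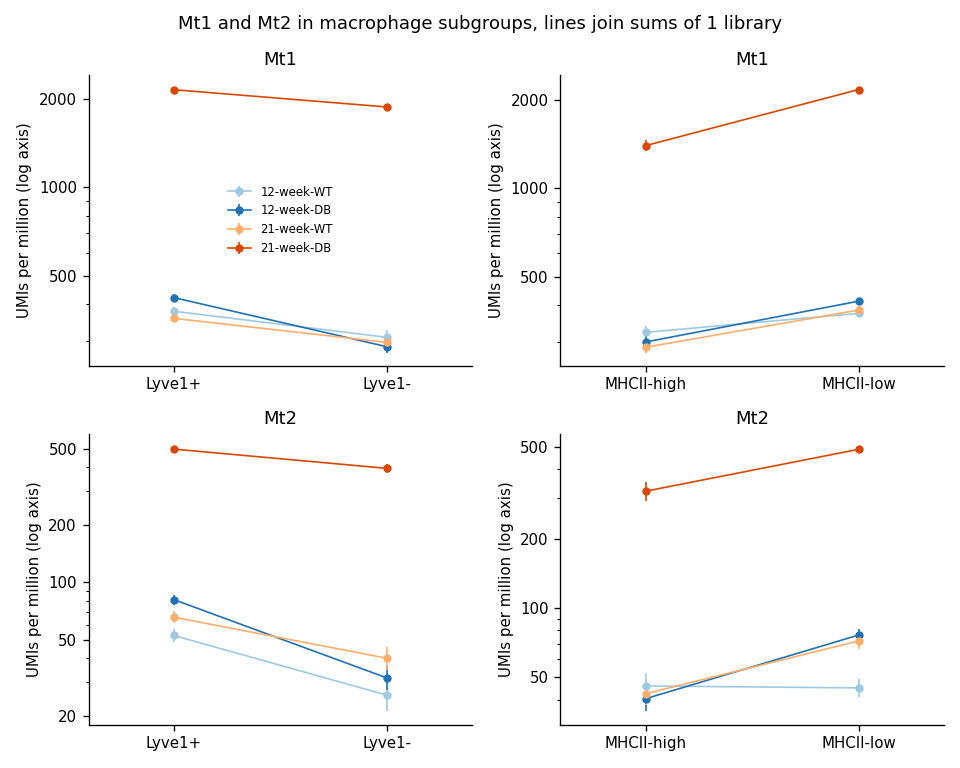
Mt1 (upper row) and Mt2 (lower row) in CPM on a log axis, in Lyve1+ and Lyve1- macrophages (left) and in MHCII-high and MHCII-low macrophages (right), where each line joins the sums of 1 library and bars are exact 95% Poisson intervals. The lines fall from Lyve1+ to Lyve1- in every library, and rise from MHCII-high to MHCII-low in every library for Mt1 and in 3 of 4 for Mt2.

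MHCII-high macrophages made up 33.3%, 35.7%, 47.9% and 10.4% of the class, so the subgroup with less Mt1 was also rarest in 21-week-DB. The ratio of DB to WT at 21 weeks was therefore taken inside each of the 4 combinations of Lyve1 and MHCII. For Mt1 the log2 ratio was between 2.23 and 2.53, so each of the 4 was below the 2.62 of all macrophages. For Mt2 it was between 2.74 and 3.53, on both sides of the 3.02 of all macrophages. The part of the subgroup shares in these ratios was not tested further. The Lyve1+ MHCII-high macrophages of 21-week-DB numbered 21. Within MHCII-low macrophages, Mt1 was at 382, 450, 386 and 2166 CPM in Lyve1+ and at 335, 261, 374 and 2148 in Lyve1-. Within MHCII-high macrophages it was at 364, 297, 293 and 1697 against 296, 302, 284 and 1330. The Mt1 difference between Lyve1+ and Lyve1- was thus small or absent in some of these pairs. The part of MHCII in that difference was not tested. The 5 clusters of macrophages, which were found without the metallothionein genes, are named by their leading genes. The highest Mt1 level was in the cluster led by the chemokine genes Ccl2, Cxcl1 and Ccl4, at 437, 627, 527 and 3868 CPM, and its Mt2 level was 42.2, 148, 187 and 1025. The cluster of Vsig4 and S100b had the lowest level in 21-week-DB, with Mt1 at 258, 264, 245 and 618. Its log2 ratio of 1.34 (lower bound 1.25) at 21 weeks was the smallest of the 5, and the clusters led by Ccl2 (2.88) and by Aqp1 and Pf4 (2.87) had the largest. In each cluster 21-week-DB was above the other 3 libraries for both genes.

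**Figure D4:**
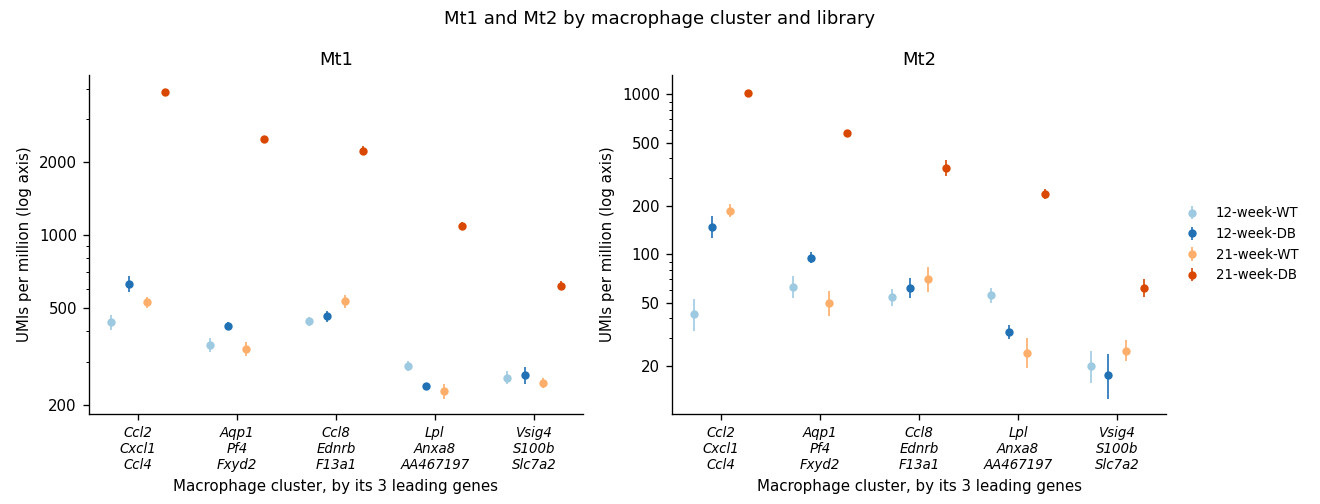
Mt1 (left) and Mt2 (right) in the 5 macrophage clusters, labelled by their 3 leading genes, in CPM on a log axis with exact 95% Poisson intervals and 1 point per library. The 21-week-DB point is the highest in each cluster, from 618 to 3868 for Mt1.

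Genes that share known inducers with the metallothioneins were read in the same macrophages. Among zinc genes, 1 of 25 reached 50 CPM, the importer Slc39a1, with a log2 ratio of DB to WT at 21 weeks of -0.40 (-0.51 to -0.29). With at least 50 UMIs and no minimum level, 17 were measured, 6 higher and 11 lower, none of them by 2-fold, with a median log2 ratio of -0.071, where 4.6% of 11436 genes were at least 2-fold higher and 3.08% at least 2-fold lower. Mtf1, which encodes the zinc sensor, was at 18.3 CPM in 21-week-WT and 21.5 in 21-week-DB (log2 0.23, -0.0029 to 0.46). Slc30a1, the zinc exporter that MTF1 also drives, was at 33.5 and 33.0 (log2 -0.022, -0.20 to 0.16). Both were below the level set for naming genes and were chosen after their values were seen. Of 8 copper genes 3 were measured, the chaperone Atox1 (log2 -0.037), the mitochondrial carrier Cox17 (0.39) and Commd1 (0.21), none of them past 2-fold.

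Glucocorticoid-response genes were mixed. Of 12, 9 were measured, 6 higher and 3 lower in DB, and their log2 ratios had a median of 0.32, against 0.028 for all genes, with 1 at least 2-fold higher against the 1.83% of all genes. That gene was Fkbp5, a chaperone that dampens the glucocorticoid receptor, at 20.4, 49.3, 37.2 and 145 CPM (log2 1.97, 1.84 to 2.10). Tsc22d3, which encodes the anti-inflammatory protein GILZ, was at 197, 265, 283 and 499, and the transcription factor Klf9 at 87.0, 96.4, 152 and 265. Sgk1 (log2 -0.46) and Dusp1 (log2 -0.29) were lower in DB. Without the minimum level 11 were measured and 3 were at least 2-fold higher, against 4.6% of all genes under that setting. Over the cell classes, Fkbp5 was higher in DB at 21 weeks in 14 of 14 classes, with 11 intervals above 0 and 0 below, and at 12 weeks in 13 of 14, with 5 above and 1 below. Tsc22d3 was higher in 13 of 14 classes at 21 weeks, with 11 intervals above 0 and 0 below, and in 12 of 15 at 12 weeks, with 9 above and 1 below. Klf9 was higher in 13 of 13 classes at 21 weeks, with 8 intervals above 0 and 0 below, and at 12 weeks it was higher in 5 and lower in 9 of 14, with 3 above and 1 below. Mt1 at 12 weeks was higher in 9 and lower in 6 of 15 classes. Fkbp5, Tsc22d3 and Klf9 were followed over classes after their macrophage values were seen. The other members, among them the 3 that were lower in DB, were not followed. The share of all genes that were higher in as many classes was not computed, so these counts have no background. A part of glucocorticoids in the Mt1 and Mt2 values was not tested.

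Of 14 NRF2 and antioxidant genes 9 were measured, of which 8 were higher and 1 was lower at 21 weeks, and the median of their log2 ratios was 0.81. At least 2-fold higher were 3 of them, against 1.83% of all genes, namely Hmox1, which encodes the heme-degrading enzyme heme oxygenase 1, at 257, 235, 179 and 905 CPM (log2 2.34, 2.28 to 2.40), and the glutathione genes Gsr (1.34) and Gclm (1.12). Over the classes at 21 weeks, Hmox1 was higher in 10 and lower in 3 of 13, with 5 intervals above and 2 below 0, and it too was followed there after its macrophage values were seen. The 10 early-response and heat-shock genes, which tissue digestion is known to induce, had log2 ratios with a median of 0.015 at 21 weeks and none past 2-fold, and a median of -0.63 at 12 weeks with 2 at least 2-fold lower in DB, against 1.32% of all genes. Between the DB libraries all 10 were higher at 21 weeks than at 12 weeks, with a median log2 ratio of 0.84 against -0.13 for all genes, and 3 were at least 2-fold higher, against 2.51% of all genes. Mt1 (log2 2.47) and Mt2 (log2 2.87) were higher in that comparison as well, and the part of these genes in it was not tested. The 2 hypoxia genes and the 4 IL-6 and STAT3 genes measured had none past 2-fold at 21 weeks, with medians of -0.047 and -0.23. Without the minimum level, 6 hypoxia genes were measured, 1 higher and 5 lower, with a median of -0.64. At least 2-fold lower were 2, against 3.08% of all genes, named after their values were seen. Vegfa was at 3.64, 3.88, 26.5 and 7.87 CPM (log2 -1.75, -2.07 to -1.45), and Egln3 had a log2 ratio of -1.56. Of 6 IL-6 and STAT3 genes at that setting, 2 were higher and 4 lower, with 1 at least 2-fold higher against 4.6%. Below the minimum level, and chosen after its values were seen, the acute-phase gene Saa3 was at 2.10 CPM in 21-week-WT and 18.7 in 21-week-DB.

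**Figure D5:**
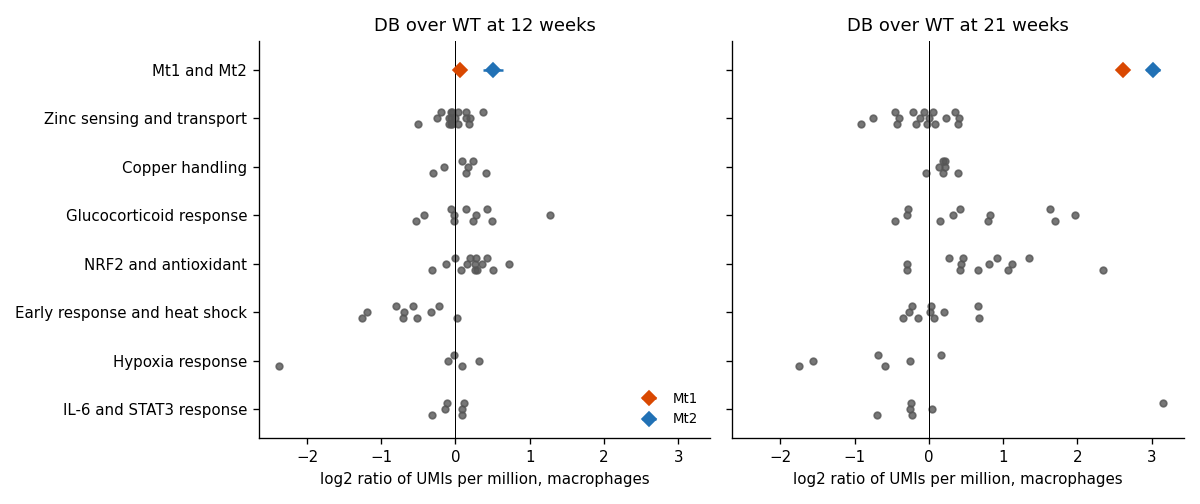
Log2 ratio of DB to WT in macrophages at 12 weeks (left) and 21 weeks (right) for Mt1 and Mt2 (diamonds, with exact 95% intervals) and for each list member with at least 50 UMIs over both libraries (grey points, no minimum level), 1 row per list. Mt1 (2.62) and Mt2 (3.02) lie apart from the zinc and copper genes at 21 weeks, and Hmox1 (2.34), Fkbp5 (1.97) and Saa3 (3.16) are the list members nearest to them.

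The gene most like Mt1 across single macrophages was Mt2, with a Pearson correlation of 0.30, 0.47, 0.39 and 0.72 and a median of 0.43 among 7102 genes. It was followed by the chemokine gene Pf4 (0.25), Gas6 (0.24), the ferritin light chain gene Ftl1 (0.23), Pmp22 (0.23), Ninj1 (0.23), the lysosomal tetraspanin gene Cd63 (0.22), Ifi207 (0.21), Aqp1 (0.20) and Litaf (0.19). Over 45 sums of a class and a library with at least 50 barcodes, Mt2 was again the nearest (0.91), followed by Hsbp1 (0.79), Itprid2 (0.76), Bri3 (0.76), Snrnp27 (0.72), Selenof (0.72), Selenos (0.70), Rab14 (0.70), Morf4l1 (0.69) and Ccl7 (0.69). Macrophages share the depth of their library and the sums share libraries, so these values describe likeness and carry no p. In macrophages of 21-week-WT and 21-week-DB, Hsbp1 was at 127 and 144 CPM, Bri3 at 365 and 497 and Ccl7 at 214 and 153, without the gap shown by Mt2.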

How the data were processed

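CD45+ cells from hindpaws of pooled mice were profiled with 10x 3' libraries, 1 per group. Reads were mapped to mm10 by the authors in Cell Ranger (5.0.0 in the headers of the 12-week files and in the submitters' processing notes, 6.0.0 in the headers of the 21-week files) and the authors deposited raw UMI counts per gene and cell barcode, with no normalization.

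A barcode was kept if it had 200 or more genes and if mitochondrial genes gave no more than 10% of its UMIs, without removal of doublets or ambient RNA. Each barcode was scored on marker lists with scanpy 1.11.5 and python 3.11.15 and entered the class with the highest score, if that was at least 0.3 and 0.05 above the next. These limits, and the split of the cDC1 gate, were set after viewing the data, and classes carry the name of their markers only. MHC class II genes and Cst3 were not used in the gates. Clusters (2000 variable genes without metallothioneins, 20 principal components, 15 neighbours, resolution 1.0) served as an alternative. Counts were summed over barcodes and divided by their total UMIs, as CPM. Levels carry exact Poisson intervals, shares Clopper-Pearson intervals and ratios exact conditional binomial intervals, at 95%, and a count of 0 allows 3 counts. A ratio was formed where both libraries had more than 3 UMIs. No test was made between groups. Lyve1+ against Lyve1- and MHCII-high against MHCII-low sums were tested with edgeR 4.0.16 in R 4.3.3 (quasi-likelihood test after filterByExpr and TMM scaling, the library entering as a block, adjusted p under 0.05 by Benjamini-Hochberg over all genes), checked on simulated counts. The dividing gene was left out of each test.

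The members and the gene lists were chosen with earlier results of these data known. Mt1 and Mt2 were always named, as were list members with at least 50 CPM in macrophages of 1 or more libraries and the 10 genes most like Mt1 by each of 2 correlations. Alternatives were other limits on genes and mitochondrial UMIs, Scrublet, clusters, ambient subtraction, other scalings, thinning to 2000 UMIs, subgroups, DESeq2 1.42.0, other filters and each library left out. Leaving out shared barcodes, list members with 50 UMIs and no minimum level, and leaving out the top barcode of each class were added after seeing the data. Mature protein sequences were not used here.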

Additional observations from a re-analysis of the deposited data

Results flagged for a closer look

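In 5 classes for Mt1 and 3 for Mt2, the interval of the DB to WT ratio was below 0 at 12 weeks and above 0 at 21 weeks. With 1 library per group, the difference between the ages was not tested. For Mt1 the log2 ratio was -0.42 at 12 weeks and 2.41 at 21 weeks in monocyte-derived cells. In cDC2 it was -0.57 and 2.35, and in Xcr1+ or Clec9a+ dendritic cells -0.73 and 2.92, the last with 7 barcodes in 21-week-DB. In stromal cells Mt1 was at -0.61 and 1.21, and in keratinocytes at -0.29 and 1.46. For Mt2 the log2 ratio was -0.60 and 2.38 in cDC2, -1.35 and 3.91 in Xcr1+ or Clec9a+ dendritic cells and -0.46 and 0.61 in keratinocytes. The Mt2 value of the Xcr1+ or Clec9a+ class at 21 weeks rests on 1 barcode with all 25 UMIs. With the top barcode left out of each class and library, Mt1 in stromal cells at 12 weeks was -0.24, with an interval of -0.53 to 0.05.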

How the results depend on the processing

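The 12-week ratio of Mt1 in macrophages (log2 0.063) had no stable sign: it was -0.034 with clusters in place of gates, -0.019 as a mean per barcode and -0.11 in Lyve1- macrophages, against 0.15 in Lyve1+ macrophages. That of Mt2 (0.51) was 0.25 with clusters and 0.30 in Lyve1- macrophages. At 21 weeks Mt1 (2.62) was 2.56 as a mean per barcode and 2.67 in Lyve1- macrophages, and Mt2 (3.02) was 2.86 as a mean per barcode, 2.92 in Lyve1+, 3.30 in Lyve1- and 3.15 without barcodes holding a stromal or keratinocyte UMI. Over the 11 alternatives the 21-week ratios ran from 2.56 to 2.67 and from 2.86 to 3.30. In all, 65 ratios moved within their interval, 20 beyond it and 3 changed sign. In the Lyve1 test, Mt1 (0.24) was 0.28 without a filter (adjusted p 0.00506) and 0.49 with clusters (adjusted p 0.000958), and 0.14 to 0.29 with 1 library left out, past the threshold without 21-week-DB (adjusted p 0.043). Mt2 (0.73) was 0.54 to 0.95 with 1 library left out. Without the replicate block, Mt2 was 0.42 (adjusted p 0.907), and in the MHCII test Mt1 was -0.44 (0.839) and Mt2 -0.57 (0.833), since the levels of the 4 libraries then enter the spread. The MHCII values were -0.41 to -0.27 for Mt1 and -0.65 to -0.38 for Mt2 with 1 library left out. Genes called in the Lyve1 test (2982) were 533 without the block, 1570 when thinned and 1895 to 2583 with 1 library left out, the lowest without 12-week-WT. In the MHCII test (3470) they were 779, 1782 and 2416 to 3512. The cause of these changes was not tested. With 12-week-DB or 21-week-WT left out, Mt2 in the MHCII test missed the threshold (adjusted p 0.0545 and 0.0565), while clusters gave log2 values of -0.72 for Mt1 and -0.99 for Mt2, both past it. Classes with few barcodes limit the depth, down to 7 in 21-week-DB.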

Other observations

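Mt3 and Mt4, the tissue-restricted members of the same gene cluster, were scarce in leukocytes. Mt3, known from neurons, had 49, 357, 121 and 140 UMIs among all kept barcodes (WT and DB at 12 weeks, then WT and DB at 21 weeks), in 33, 20, 89 and 88 barcodes. How many of these Mt3 barcodes lay in the cluster led by neuronal genes, found in the 21-week libraries only, is not given here. Of the 357 UMIs of 12-week-DB, 328 (91.9%) were in 2 barcodes that also held 507 and 516 UMIs of Ctsk, 301 and 253 of Acp5 and 411 and 588 of Mmp9, genes of bone-resorbing osteoclasts. These 2 held 11 and 18 UMIs of Mt1. They were looked at after their values were seen and are too few for any comparison. Mt4, known from stratified epithelium, had 165, 143, 316 and 491 UMIs, of which the keratinocyte gate held 58.2%, 10.5%, 74.1% and 81.9%. In macrophages Mt3 was at 0.0639, 0.105, 0.234 and 0.286 CPM and Mt4 at 0.639, 1.42, 0.818 and 1.93 CPM, on 1 to 4 and 10 to 27 UMIs.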
